A study of Mus musculus with 24 samples.

Results

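The cell cycle genes described here are 42 named genes, 13 that act in S phase and 29 that act in G2 and mitosis, of the 24421 genes in the count table. They were taken by name, not by a threshold on a measured value, though with earlier results of these data known. All 42 had enough reads to be among the 17214 genes tested. The tumours were melanomas from C57BL/6 mice of the TN model, 6 for each of 4 homozygous codon 61 genotypes: NRAS 61K/K (lysine), 61L/L (leucine), 61H/H (histidine) and 61R/R (arginine). In all 4 genotypes Cre driven by the tyrosinase promoter was switched on in melanocytes by 4-hydroxytamoxifen, applied at 20 mM on postnatal days 1 and 2, and it activated the mutant allele at the endogenous Nras locus. The other codon 61 alleles had been made by gene editing in 61R/R zygotes and backcrossed to 61R/R mice, and 61R/R is the genotype the others are set against. Ages and ultraviolet exposure of the sequenced mice are not in the labels, and whole tumours were used, so fewer dividing cells and less of a transcript per cell cannot be told apart.

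Dividing cells switch these genes on in order. E2F transcription factors turn on the replication genes as cells enter S phase: the Mcm2 to Mcm7 proteins form the helicase that opens DNA, Cdt1 loads it, Gmnn (geminin) holds Cdt1 in check, Pcna clamps the polymerases to DNA, and Rrm1, Rrm2 and Tyms make the nucleotides. Later, in G2, the MuvB complex with B-MYB and FOXM1 turns on the mitotic genes: the cyclins Ccna2, Ccnb1 and Ccnb2 with their kinase Cdk1, the kinases Aurka, Aurkb, Plk1, Bub1, Bub1b and Ttk, the kinesin motors, the kinetochore proteins Cenpa, Cenpe, Cenpf, Ndc80 and Nuf2, and the genes of cell division itself such as Prc1 and Anln. In non-dividing cells the DREAM complex keeps both groups off. In tumours these transcripts are widely read as a measure of how many cells are cycling.

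The groups differ in the short motifs at their starts. RefSeq promoters (GRCm38.p6, 250 bases before to 50 after each start site) were matched by symbol for 36 of the 42 members, 11 S phase and 25 mitotic, and not for Aurkb, Ccna2, Gmnn, Kif20a, Mcm4 and Tpx2. For Mcm7 and Prc1, each with 2 promoters listed, the first was used. The windows of Kif2c and E2f1 lie inside the span of the counted gene, not at its outer end. Motifs were searched on both strands. The CHR element (TTTGAA or TTCGAA), bound by MuvB, stood in 20 of 25 mitotic promoters (80%), against 2 of 11 S phase promoters (18.2%) and 19.4% of the promoters of all 27025 genes in the same table. The CCAAT box (CCAAT) stood in 76% of the mitotic and 72.7% of the S phase promoters, against 37.9% of all. An E2F site (TTTCGCGC, TTTGGCGC, TTTCCCGC or TTTGCCGC) stood in 5 of 11 S phase promoters (45.5%), those of Mcm3, Mcm5, Mcm6, Mcm7 and Cdt1, and in 1 of 25 mitotic promoters (4%), that of Cdk1, against 2.32% of all. CHR and CCAAT stood together in 17 of 25 mitotic promoters (68%), against 7.7% of all. Matches were to exact letters, the E2F motifs overlap one another where they meet on opposite strands, and a match is not evidence of binding in these tumours.

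Ccnb2, Cdc20 and Cdk1 are printed because they show the mitotic arrangement of CHR and CCAAT, and capitals mark the motifs (ATTGG is CCAAT read on the other strand).
Ccnb2 (chr9:70421505-70421804, minus strand): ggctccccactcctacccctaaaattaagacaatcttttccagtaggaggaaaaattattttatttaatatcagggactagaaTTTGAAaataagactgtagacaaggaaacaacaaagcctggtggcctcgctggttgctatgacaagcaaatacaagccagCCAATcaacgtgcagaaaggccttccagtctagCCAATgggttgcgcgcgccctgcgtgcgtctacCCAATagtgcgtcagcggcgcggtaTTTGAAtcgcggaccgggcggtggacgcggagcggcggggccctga
Cdc20 (chr4:118437294-118437593, minus strand): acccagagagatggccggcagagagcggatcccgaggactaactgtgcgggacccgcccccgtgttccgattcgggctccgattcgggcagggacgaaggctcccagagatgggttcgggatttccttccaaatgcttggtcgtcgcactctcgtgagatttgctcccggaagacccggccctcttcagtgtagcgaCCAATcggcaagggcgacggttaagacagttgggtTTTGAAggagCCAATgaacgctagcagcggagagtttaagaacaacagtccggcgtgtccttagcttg
Cdk1 (chr10:69352863-69353162, minus strand): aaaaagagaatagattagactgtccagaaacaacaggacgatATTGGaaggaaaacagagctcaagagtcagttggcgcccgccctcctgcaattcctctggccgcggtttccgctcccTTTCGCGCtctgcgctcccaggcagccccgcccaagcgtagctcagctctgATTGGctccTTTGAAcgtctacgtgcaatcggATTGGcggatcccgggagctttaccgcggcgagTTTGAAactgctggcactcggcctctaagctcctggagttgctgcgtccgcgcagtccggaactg

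In Cdc20, the activator of the anaphase-promoting complex, the CHR lay at -18 to -13 from the start site between CCAAT boxes at -53 to -49 and -8 to -4. Ccnb2 (cyclin B2) had 3 CCAAT boxes, at -87 to -83, -54 to -50 and -21 to -17, and a CHR on either side of them, at -167 to -162 and 5 to 10. Cdk1 held all 3 kinds of motif, with an E2F site at -131 to -124, CHR elements at -71 to -66 and -15 to -10, and 3 CCAAT boxes on the other strand.

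Mcm5 and Mcm6 are printed as the S phase counterparts, and Pcna because its values depart from those of the other members, with capitals again for the motifs.
Mcm5 (chr8:75109259-75109558, plus strand): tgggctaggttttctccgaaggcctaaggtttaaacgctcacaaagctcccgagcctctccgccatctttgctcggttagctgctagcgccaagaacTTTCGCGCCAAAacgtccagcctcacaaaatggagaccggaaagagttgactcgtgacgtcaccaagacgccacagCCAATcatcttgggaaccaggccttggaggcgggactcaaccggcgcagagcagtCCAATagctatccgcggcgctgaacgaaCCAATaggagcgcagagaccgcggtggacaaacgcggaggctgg
Mcm6 (chr1:128359656-128359955, minus strand): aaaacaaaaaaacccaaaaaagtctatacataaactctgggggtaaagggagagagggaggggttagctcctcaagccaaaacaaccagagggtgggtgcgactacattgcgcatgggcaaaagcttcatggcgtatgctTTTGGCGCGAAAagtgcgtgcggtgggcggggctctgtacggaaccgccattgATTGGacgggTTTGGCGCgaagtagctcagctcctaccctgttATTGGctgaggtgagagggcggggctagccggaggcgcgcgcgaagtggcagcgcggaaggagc
Pcna (chr2:132253131-132253430, minus strand): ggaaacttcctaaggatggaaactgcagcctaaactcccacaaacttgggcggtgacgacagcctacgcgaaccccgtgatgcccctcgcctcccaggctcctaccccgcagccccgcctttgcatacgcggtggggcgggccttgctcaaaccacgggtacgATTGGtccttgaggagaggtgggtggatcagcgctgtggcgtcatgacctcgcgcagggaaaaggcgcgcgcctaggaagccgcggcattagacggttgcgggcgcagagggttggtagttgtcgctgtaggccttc

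In Mcm5 a run of 12 capital bases holds an E2F site on each strand, at -153 to -146 and -149 to -142. Mcm6 had 3 E2F sites, at -110 to -103, -106 to -99 and -47 to -40. In Pcna the search found a CCAAT box at -87 to -83 and no other of these motifs in this window.

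Library totals lay between 31946444 and 43773250 reads, and Gmnn, the member with the fewest, had 59 to 445 reads per library. Values are CPM, read counts scaled to a common library total with TMM factors, and tests are edgeR's quasi-likelihood F-test in 1 fit of all 24 libraries with Benjamini-Hochberg adjustment over all genes tested, called at an adjusted p under 0.05. Levels of the targeted gene Nras were 122 ± 52.6 CPM in 61K/K, 135 ± 43.1 CPM in 61L/L, 189.6 ± 23.4 CPM in 61H/H and 155 ± 52.0 CPM in 61R/R tumours (SD, n = 6 each), and gene counts do not show which codon 61 allele was read. Of the pigment cell markers, Sox10 stood at 110 to 1049 CPM and Mitf at 21.1 to 58.7 CPM in every tumour, while pigment genes were low, with Tyrp1 at 0 in 5 libraries, Dct at 0 in 3 and Mlana at 0 in 1. Column names of 6 libraries (61K/K replicates 1, 3 and 6, 61L/L replicate 6, 61H/H replicate 6 and 61R/R replicate 3) lack the separator that the other 18 have after the letter code. With genotype in the fit, 28.3% of all genes tested were called between these 2 name styles, so some values are also given within the 18.

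Per kilobase of exon, Pcna had the highest mean level of the 42 over the 24 tumours, at 54.3 CPM per kb, followed by the proliferation marker Mki67 at 36.4, the DNA decatenating enzyme Top2a at 35.99 and the midzone protein Prc1 at 33.5 CPM per kb. The checkpoint kinases Ttk and Bub1 had the lowest, at 4.09 and 4.71 CPM per kb. The members varied more between tumours than most genes did. Their median SD over the 24 tumours was 0.64 on the log2 scale (0.36 to 0.74), against 0.40 for the 14974 tested genes with a mean of at least 1 CPM. Rrm2, the regulated subunit of ribonucleotide reductase, had the widest range, 10.96-fold between 7.43 and 81.4 CPM. Ndc80 followed with 9.98-fold, Aurkb with 9.36-fold and Mki67 with 8.30-fold. Tyms had the narrowest, at 2.49-fold.

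Most of that range lay inside the 61R/R group. Mki67 stood at 288, 98.1, 395, 765, 174 and 814 CPM in 61R/R replicates 1 to 6, a spread that contained every value of the other genotypes: 187 to 374 CPM in 61K/K, 210.3 to 402 CPM in 61L/L and 392 to 623 CPM in 61H/H tumours. Of the 42 members, 39 had their lowest value of all 24 tumours in 61R/R replicate 2 and the other 3 in 61R/R replicate 5. For 22 the highest value was in 61R/R replicate 6 and for 18 in 61R/R replicate 4, and the exceptions were Pcna (61K/K replicate 3) and Ccna2 (61H/H replicate 5). The titles of the 61R/R tumours carry the letter codes 61K (replicates 1 and 2), 61P (replicates 3 and 6) and 61L (replicates 4 and 5), and the mean of all members, as centred log2 CPM, was -0.39 and -1.33, then 0.26 and 1.12, then 1.10 and -0.80 in these pairs. Each code thus held a tumour well above the other. The study named breeding cohorts, each with its own 61R/R mice, by the same letters, though no label says that the title code is the cohort. The 61K/K tumours all carry 61K, the 61L/L tumours 61L and the 61H/H tumours 61H, so 61K/K and 61L/L can each be set against 2 61R/R tumours of their own code, while for 61H/H code and genotype cannot be told apart.

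**Figure D1:**
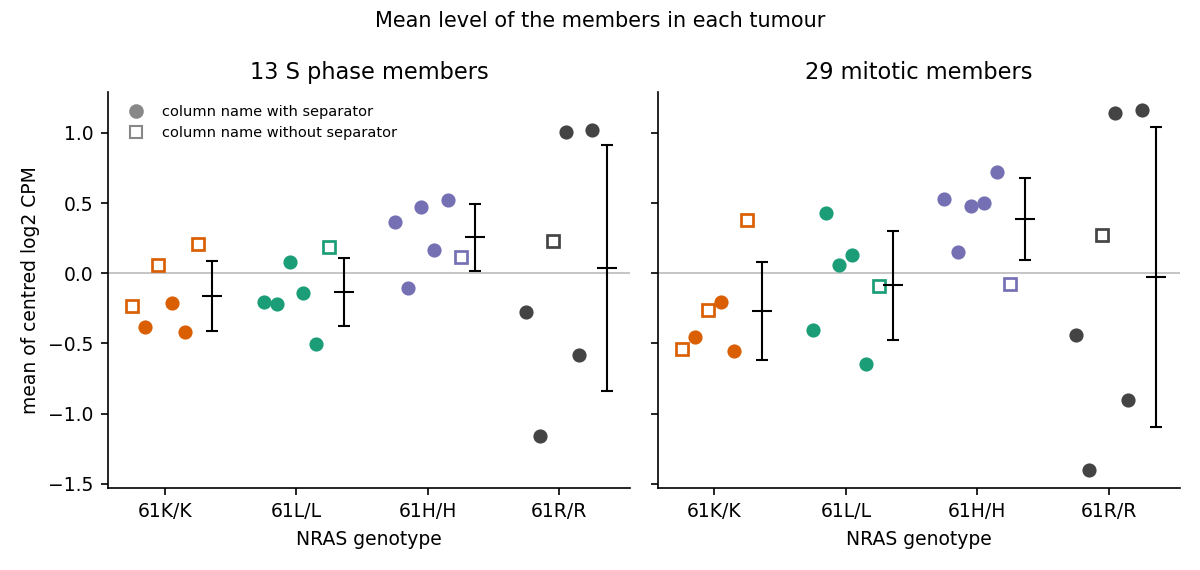
Mean centred log2 CPM of the 13 S phase members (left) and the 29 mitotic members (right) in each tumour, by genotype, with the group mean and SD as a black bar. The 61R/R tumours run from -1.16 to 1.02 for S phase and from -1.40 to 1.16 for mitotic members, on both sides of all other tumours, and open squares mark libraries whose column names lack the separator.

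Within a genotype, all 42 members had their widest SD of log2 CPM in 61R/R. The median SD of the members was 0.35 in 61K/K, 0.36 in 61L/L, 0.34 in 61H/H and 1.05 in 61R/R tumours. Over the 14974 genes with a mean of at least 1 CPM it was 0.40 in 61K/K, 0.32 in 61L/L, 0.37 in 61H/H and 0.34 in 61R/R. Only in 61R/R were the members thus far more variable than the genes at large. The widest genotype for those genes was 61K/K for 36.7%, 61L/L for 14.4%, 61H/H for 30.5% and 61R/R for 18.3%. The SD of the S phase mean was 0.25 in 61K/K, 0.24 in 61L/L, 0.24 in 61H/H and 0.88 in 61R/R tumours, and that of the mitotic mean 0.35, 0.39, 0.29 and 1.07 in the same order. The count stayed at 41 or 42 with any 1 library left out and at 42 within the 18 libraries with a separator. No test of a difference in spread was run, and the members move together, so they are not 42 separate observations of it.

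**Figure D2:**
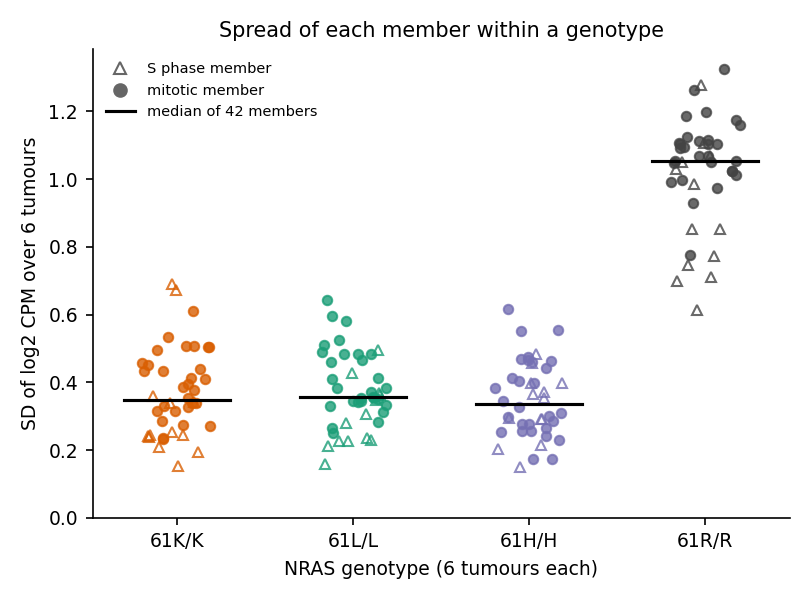
SD of log2 CPM over the 6 tumours of a genotype, 1 symbol per member (triangles S phase, circles mitotic), with the median of the 42 as a line. The 61R/R values, 0.61 to 1.32, lie above nearly all others, with medians of 0.35, 0.36, 0.34 and 1.05 from left to right.

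Most S phase, mitotic and histone genes outside the 42 had their widest spread in 61R/R too. Lists of 57 further S phase genes (origin factors, polymerases, repair genes), 55 further mitotic genes and 18 transcription regulators were used. The widest genotype was 61R/R for 55 of 57 S phase (96.5%), 52 of 55 mitotic (94.5%) and 10 of 18 regulator genes (55.6%), and for 52 of 56 tested histone genes (92.9%).

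Genotypes were then compared for the level of each member, to ask whether tumours of the 4 alleles differ in cycling transcripts. By group median, 40 of 42 members had their highest group median in 61H/H and 38 their lowest in 61K/K. Means gave 28 members highest in 61H/H, 13 in 61R/R and 1 (Pcna) in 61K/K, and 32 lowest in 61K/K and 10 in 61L/L. The share of all genes with these orders was not counted, and the members move together, so they are not 42 separate observations. With any 1 library left out the count of 40 ran from 25 to 41, lowest without 61R/R replicate 1 or 5, and it was 42 within the 18 libraries. No member was called by edgeR in any of the 8 comparisons, in which it called 0% to 9.36% of all genes. Limma-voom called no member either, beside 0 of 17214 genes in 61K/K against 61R/R and 1405 in 61H/H against 61K/K. DESeq2 called 1, Cenpe in 61H/H against 61K/K, where it called 14.3% of all genes. Each tool pools the spread of a gene over the genotypes, and for every member it was widest in 61R/R. Shares of members and of all genes are therefore not on equal terms, also in comparisons without 61R/R.

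The genotypes overlapped for nearly every member. Rrm2 stood at 18.8, 22.5 and 35.3 CPM (lowest, median, highest) in 61K/K, 18.6, 32.4 and 40.3 CPM in 61L/L, 23.1, 43.9 and 57.5 CPM in 61H/H, and 7.43, 29.9 and 81.4 CPM in 61R/R tumours. E2f1, the activator of S phase genes, stood at 13.7, 18.4 and 24.4 CPM in 61K/K, 14.7, 19.5 and 23.7 CPM in 61L/L, 19.1, 26.9 and 30.9 CPM in 61H/H, and 10.53, 20.0 and 46.1 CPM in 61R/R tumours. Top2a stood at 124, 141 and 252 CPM in 61K/K, 103, 179.8 and 232 CPM in 61L/L, 165, 219.8 and 257 CPM in 61H/H, and 61.3, 186 and 400.0 CPM in 61R/R tumours. For these 3 genes the medians of 61H/H were the highest, and each 61H/H value lay within the 61R/R range. Plk1, a kinase of mitotic entry, stood at 10.3, 14.8 and 20.8 CPM in 61K/K, 12.8, 18.4 and 21.4 CPM in 61L/L, 13.6, 23.4 and 32.7 CPM in 61H/H, and 5.61, 17.6 and 44.7 CPM in 61R/R tumours. Aurkb, the kinase that corrects faulty chromosome attachments, stood at 11.2, 15.5 and 17.7 CPM in 61K/K, 12.8, 19.8 and 21.9 CPM in 61L/L, 9.95, 24.9 and 32.4 CPM in 61H/H, and 5.73, 16.3 and 53.6 CPM in 61R/R tumours. Its lowest 61H/H value lay below every 61K/K value. Gmnn, at the low end, stood at 3.67, 5.26 and 10.4 CPM in 61K/K, 3.79, 5.05 and 8.31 CPM in 61L/L, 4.30, 6.94 and 8.53 CPM in 61H/H, and 1.76, 7.80 and 12.3 CPM in 61R/R tumours, the only one of these genes with its highest median in 61R/R.

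In 61K/K against 61R/R, 41 of 42 members had a log2 fold change below 0, with medians of -0.48 over the S phase and -0.52 over the mitotic members, against 0.01 over all genes tested. Neither a member nor any other gene was called (0%), and 0 members had an unadjusted p under 0.05, against 5.15% of all genes. Mki67 averaged 260.0 ± 73.3 CPM in 61K/K and 422 ± 302 CPM in 61R/R tumours (SD, n = 6 each), and its log2 fold change was -0.70 ± 0.36 (SE; adjusted p = 0.774). Mcm2 had medians of 30.2 CPM in 61K/K (28.3 to 40.3) and 37.8 CPM in 61R/R tumours (13.9 to 100.1), and differed by -0.61 ± 0.34 on the log2 scale (adjusted p = 0.774). Mcm7, another helicase subunit, had the lowest p of this comparison, differing by -0.49 ± 0.24 (adjusted p = 0.774). Of the rest of the panel, Plk1 differed by -0.62 ± 0.36 (adjusted p = 0.774), Ccnb1 by -0.47 ± 0.37 (adjusted p = 0.786) and Pcna by 0.11 ± 0.31 (adjusted p = 0.936). All 61K/K values of Mki67 and Mcm2 fell inside the 61R/R range. Without 61R/R replicate 4 the medians came to -0.19 over the S phase and -0.25 over the mitotic members, and with limma-voom to -0.23 and -0.28.

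The direction of this comparison turned round within the 61K code. Against 61R/R replicates 1 and 2, with the spread pooled over all 24 libraries, all 42 members were above 0 in the 6 61K/K tumours, with medians of 0.50 over the S phase and 0.63 over the mitotic members, against 0.02 over all genes. The mean of all members ran from -0.51 to 0.33 in the 61K/K tumours, beside the -0.39 and -1.33 of these 61R/R tumours. In that fit edgeR called 0 members and 0% of all genes, and 1 member had an unadjusted p under 0.05, against 2.86% of all genes. Mki67 differed by 0.43 ± 0.45, Plk1 by 0.68 ± 0.43 and Pcna by 0.76 ± 0.43 (edgeR adjusted p = 0.928 each). Neither direction was past the threshold, and only 2 libraries stand for 61R/R here, one of them the lowest tumour for 39 members.

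In 61L/L against 61R/R, 40 of 42 members lay below 0, with medians of -0.36 over the S phase and -0.34 over the mitotic members, against -0.01 over all genes. The call rate was again 0%, and 2 members (Cdt1 and Mcm7) had an unadjusted p under 0.05, against 5.55% of all genes. Cdt1, the helicase loader, had 7.90 to 11.8 CPM in 61L/L (median 9.89) and 5.10 to 32.0 CPM in 61R/R tumours (median 10.46), with a log2 fold change of -0.72 ± 0.32 (95% interval -1.39 to -0.06, adjusted p = 0.851). Its medians were nearly equal, and 61R/R held both the lowest and the highest value. Top2a differed by -0.34 ± 0.34 (adjusted p = 0.989) and Rrm2 by -0.36 ± 0.38 (adjusted p = 0.992). Without 61R/R replicate 6 the medians came to -0.14 over the S phase and -0.06 over the mitotic members, and with limma-voom to -0.19 and -0.08. Against 61R/R replicates 4 and 5 alone, those of the 61L code, 41 of 42 members were below 0, with medians of -0.55 and -0.44, against 0.04 over all genes. In that fit edgeR again called 0 members and 0% of all genes, and 4 members had an unadjusted p under 0.05, against 2.83% of all genes. The mean of all members ran from -0.60 to 0.23 in the 61L/L tumours, between the 1.10 and -0.80 of these 61R/R tumours. Only 2 libraries stand for 61R/R here, and they lie on both sides of every 61L/L tumour.

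In 61H/H against 61R/R the medians were 0.03 over the S phase and 0.14 over the mitotic members, with 29 of 42 above 0, against 0.01 over all genes. While 2.02% of all genes were called, no member was, and 0 members had an unadjusted p under 0.05, against 15.8% of all genes. The sign count depended on the tool, with 24 of 42 above 0 by DESeq2 and 42 of 42 by limma-voom, where the medians were 0.14 and 0.39. Mki67 stood at 392 to 623 CPM in 61H/H (median 439) and 98.1 to 814 CPM in 61R/R tumours (median 342), a log2 fold change of 0.17 ± 0.36 (95% interval -0.57 to 0.92, adjusted p = 0.878). Ccnb1, cyclin B1, differed by 0.17 ± 0.37 (adjusted p = 0.889), Plk1 by 0.03 ± 0.36 (adjusted p = 0.982) and E2f1 by -0.04 ± 0.28 (adjusted p = 0.973). The lowest p was that of Cenpf, a large kinetochore protein, at 0.45 ± 0.36 (adjusted p = 0.629). With 1 library left out at a time the S phase median ran from -0.14 to 0.18 and the mitotic one from -0.04 to 0.39, the lowest values without 61R/R replicate 5 or 2 and the highest without 61R/R replicate 6.

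The median over the mitotic members was farthest from 0 in 61H/H against 61K/K. Of the 42 members, 41 had a log2 fold change above 0 (all but Pcna, at -0.09), with medians of 0.41 over the S phase and 0.65 over the mitotic members, against 0.01 over all genes. By edgeR 9.36% of all genes were called and no member was, while 10 members had an unadjusted p under 0.05, against 26.3% of all genes. They were Mcm2, Mki67, Ccnb2, Ccna2, Aurka, Kif11, Cenpe, Cenpf, Prc1 and Anln. That fit pools the spread of a gene over all genotypes, and the members' median SD was 1.05 in 61R/R, against 0.35 in 61K/K and 0.34 in 61H/H. Over the 14974 genes with a mean of at least 1 CPM the 61R/R median was 0.34. The shares of members and of all genes are therefore not on equal terms here. Cenpe, the kinesin that carries chromosomes to the spindle equator, had the lowest p in this comparison. It stood at 112, 62.8, 86.6, 82.3, 132 and 73.0 CPM in 61H/H replicates 1 to 6 and at 29.2, 41.9, 34.0, 48.0, 38.9 and 78.5 CPM in 61K/K replicates 1 to 6, with a log2 fold change of 1.02 ± 0.37 (95% interval 0.26 to 1.79, adjusted p = 0.0808). In 61K/K the value of replicate 6 stood inside the 61H/H range and the other 5 below it. Cenpe passed in DESeq2 (adjusted p = 0.0451) and, by edgeR, without 61K/K replicate 6 (adjusted p = 0.0443), where 9.94% of all genes were called.

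Only 2 members, Mcm2 and Mki67, had no overlap between these genotypes, against 2.38% of all genes in either direction, and they were singled out after their values were seen. Mcm2 stood at 40.9 to 88.9 CPM in 61H/H (median 61.2) and 28.3 to 40.3 CPM in 61K/K tumours (median 30.2). Mki67 stood at 392 to 623 CPM in 61H/H (median 439) and 187 to 374 CPM in 61K/K tumours (median 233). Both were called when the fit held only these 12 libraries, without the wide 61R/R group, Mcm2 at 0.88 ± 0.18 (edgeR adjusted p = 0.0392) and Mki67 at 0.84 ± 0.20 (edgeR adjusted p = 0.0456), beside 2.72% of all genes in that fit. In the fit of 24 libraries Mcm2 passed with 61R/R replicate 2 left out (edgeR adjusted p = 0.0445, with 8.95% of all genes called), and over all alternatives the count of members called was 0 to 2. Of the 61K/K libraries 3 lack the separator in their column names, against 1 of the 61H/H libraries. Within the 18 libraries no member was called, but fewer tumours remain there and the share of all genes called was not counted. That count is therefore not read as a result about the members or the name style.

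**Figure D3:**
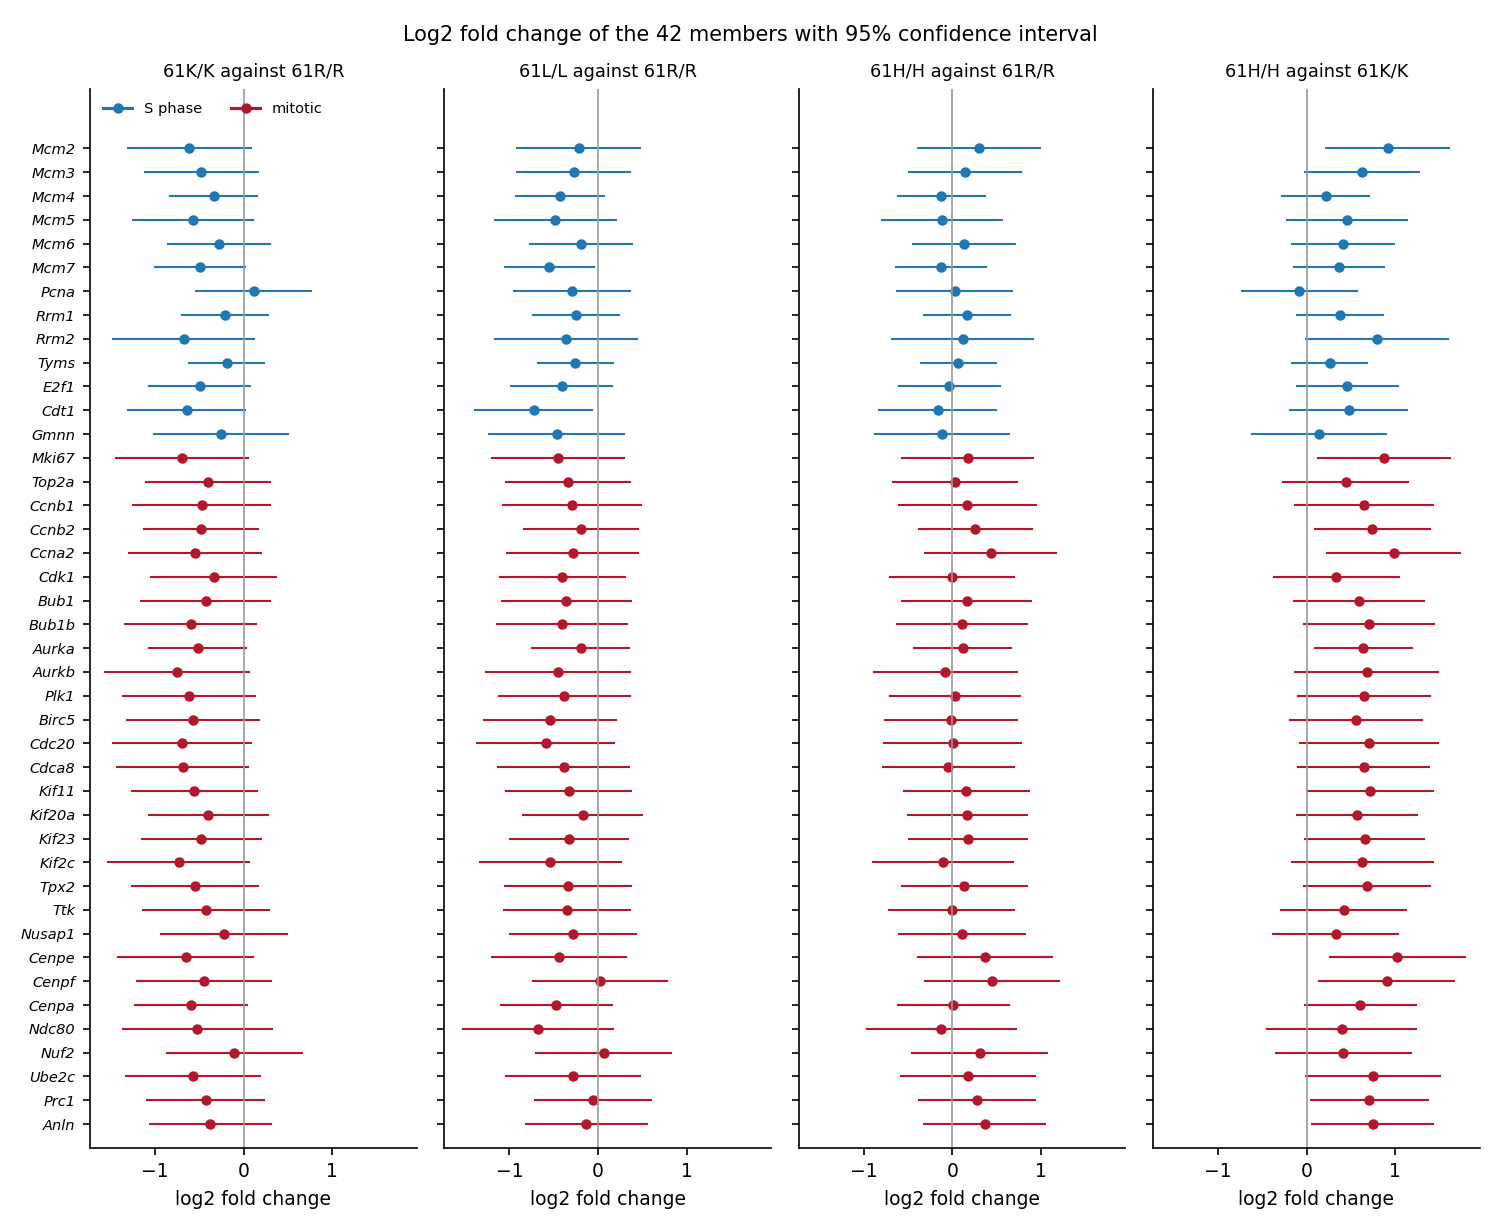
Log2 fold change of each member with its 95% confidence interval in 4 comparisons, S phase members in blue and mitotic members in red. Points lie left of 0 for 41 of 42 members in 61K/K against 61R/R (right of 0 for 42 of 42 against the 61R/R tumours of code 61K alone) and right of 0 for 41 of 42 in 61H/H against 61K/K, and most intervals cross 0.

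In 61H/H against the mean of the other 3 genotypes all 42 members lay above 0, with medians of 0.27 over the S phase and 0.42 over the mitotic members, against 0.01 over all genes. No member was among the 6.41% of genes called, and 3 (Mcm2, Ccna2 and Cenpe) had an unadjusted p under 0.05, against 23% of all genes. Cenpe had the lowest p (0.73 ± 0.29, adjusted p = 0.124). Mcm2 differed by 0.58 ± 0.26 (adjusted p = 0.192), Mki67 by 0.56 ± 0.28 (adjusted p = 0.244), Rrm2 by 0.46 ± 0.31 (adjusted p = 0.383), Ccnb1 by 0.42 ± 0.30 (adjusted p = 0.416) and Pcna by 0.09 ± 0.25 (adjusted p = 0.866). In 61H/H against 61L/L all 42 lay above 0 (medians 0.37 and 0.46), with a call rate of 0% over all genes and 1 member, Cenpe, at an unadjusted p under 0.05 (0.81 ± 0.37, adjusted p = 0.418), against 11.2% of all genes. In 61L/L against 61K/K the S phase median was -0.04 and the mitotic one 0.21, again with a call rate of 0%, and no member had an unadjusted p under 0.05, against 8.09% of all genes. Cenpf had the lowest p there (0.47 ± 0.37, adjusted p = 0.76). For any difference among the 4 genotypes 2.72% of all genes were called and no member, and 1 member, Cenpe (adjusted p = 0.271), had an unadjusted p under 0.05, against 17.4% of all genes. These comparisons share libraries, so their signs are not separate observations.

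**Figure D4:**
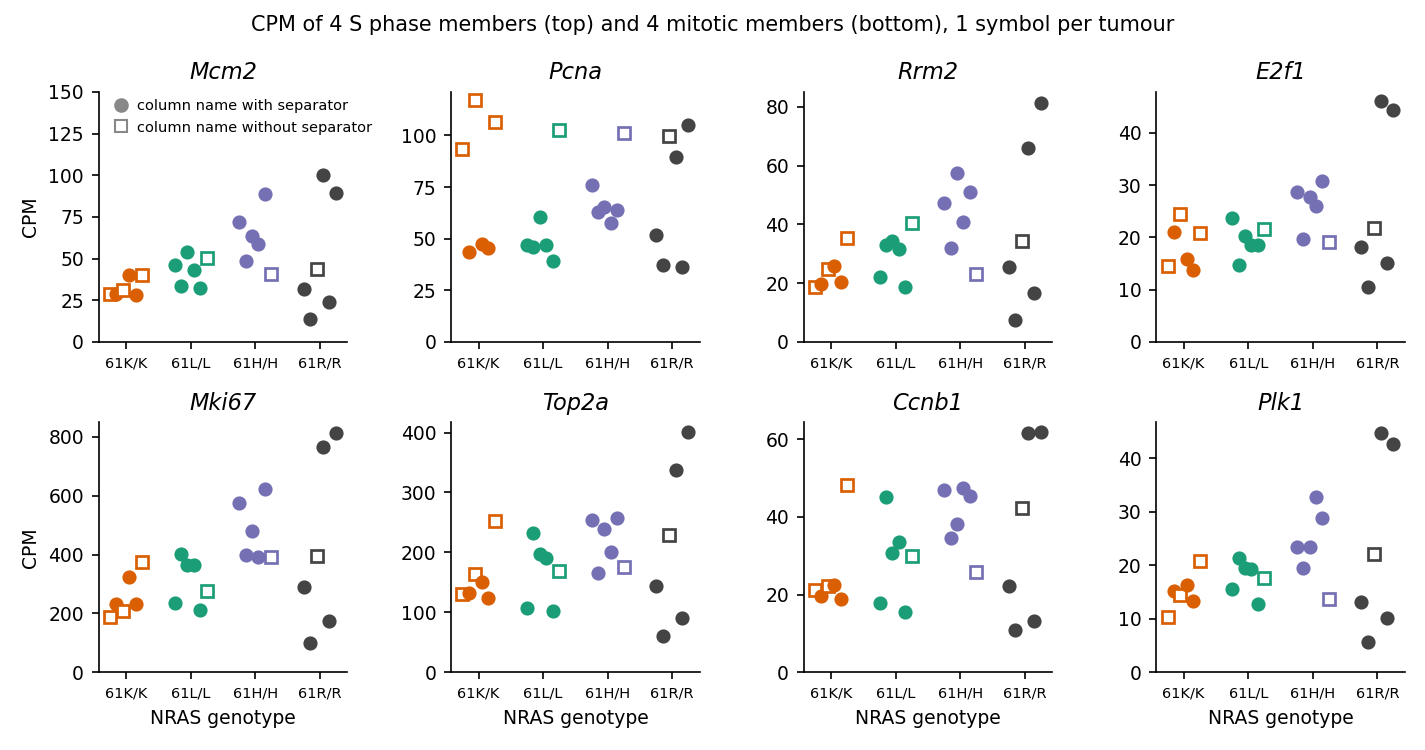
CPM of 4 S phase members (top) and 4 mitotic members (bottom) in each tumour, by genotype, with open squares for libraries whose column names lack the separator. In 7 of the 8 panels the highest and the lowest tumour are both 61R/R, and in the Pcna panel the 6 open squares stand at 93.6 to 117 CPM whatever their genotype.

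Pigment and leukocyte markers moved beside these comparisons, and fibroblast markers beside some of them. The summed pigment markers were highest in 61H/H, at 399 ± 116 CPM in 61K/K, 486 ± 130.3 CPM in 61L/L, 780.0 ± 239 CPM in 61H/H and 532 ± 150.5 CPM in 61R/R tumours (SD, n = 6 each), and most of that sum is Sox10. The leukocyte sum was lowest there, with 308 to 1418 CPM in 61K/K, 249.3 to 472 CPM in 61L/L, 218 to 349 CPM in 61H/H and 318 to 649 CPM in 61R/R tumours. Fibroblast sums averaged 31888 CPM in 61K/K, 29145 CPM in 61L/L, 24218 CPM in 61H/H and 23715 CPM in 61R/R tumours. Over the 24 tumours the mean of the members correlated with the log2 pigment sum at r = 0.49, with the leukocyte sum at -0.33 and with the fibroblast sum at -0.41, and the sums of keratinocyte, endothelial, muscle, adipocyte and erythroid markers lay between -0.23 and 0.04. Within the 18 libraries with a separator r was 0.60 for pigment, -0.47 for leukocyte and -0.47 for fibroblast markers. These are descriptions of 24 bulk tumours that share genotypes, and the part of tumour make-up in the members' levels was not tested.

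The members varied together from tumour to tumour. The median pairwise Pearson r was 0.83 within the S phase members, 0.91 within the mitotic members and 0.83 between the groups, over the 24 tumours, and with each genotype's mean removed it was 0.84, 0.92 and 0.83. Within the 18 libraries with a separator it was 0.91, 0.95 and 0.89. Bub1b, a spindle checkpoint kinase, followed the other 41 most closely (r = 0.98), with Kif11 and Tpx2, which build the spindle, next (r = 0.98 each). The S phase mean and the mitotic mean correlated at r = 0.93 (Spearman rho 0.90), and at 0.89 without 61R/R replicates 2 and 6, the tumours farthest from the median. Within genotypes r was 0.86 in 61K/K, 0.46 in 61L/L, 0.75 in 61H/H and 0.998 in 61R/R, over 6 tumours each. No p is given, since tumours share genotype and all values share library scaling.

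In 61L/L replicate 2 the S phase mean stood 0.64 (log2) below the mitotic mean (a difference of -0.64), the largest gap of the 24. All 29 mitotic members were above their mean over the tumours in it, led by Cenpf (0.92), the kinetochore protein Nuf2 (0.69), the ubiquitin-conjugating enzyme Ube2c (0.66) and Ccnb1 (0.64). Only 2 of 13 S phase members were above theirs, Rrm2 (0.15) and Mcm6 (0.02), while E2f1 (-0.51), Pcna (-0.47), Cdt1 (-0.44) and Mcm2 (-0.35) were lowest. The lists outside the 42 split in the same direction, with 46 of 55 other mitotic genes above their mean and 15 of 57 other S phase genes. This tumour was picked for its gap, so the counts describe it and are no test.

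Pcna and Gmnn were the members that departed from the rest, and they did so with the style of the column name. Pcna stood at 93.6 to 117 CPM in the 6 libraries without the separator (median 102) and at 36.1 to 105 CPM in the 18 with it (median 49.5). Only 61R/R replicates 4 and 6, at 89.6 and 105 CPM, came near in the 18. With genotype in the fit, Pcna was higher in the libraries without the separator by 0.96 ± 0.18 on the log2 scale (edgeR adjusted p = 0.000375) and Gmnn by 0.85 ± 0.27 (edgeR adjusted p = 0.020). Gmnn had 6.79 to 10.4 CPM without the separator and 1.76 to 12.3 CPM with it. These 2 of 42 members were called in this contrast, against 28.3% of all genes, and no mitotic member was. Without 61R/R replicate 4 Tyms, which makes thymidylate, was called as well (0.42 ± 0.15, edgeR adjusted p = 0.0439, with 27.8% of all genes called). The correlation of Pcna with the mean of the other members was 0.57 over the 24 tumours and 0.91 within the 18, and that of Gmnn 0.75 and 0.91. Within the 18, the log2 fold change of Pcna in 61K/K against 61R/R was -0.51, against 0.11 over all libraries. What sets the 2 name styles apart is not in the sources used here. The study names Illumina HiSeq and NovaSeq sequencers for its RNA libraries, without saying which library ran on which. The part of the sequencer in these values was not tested.

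**Figure D5:**
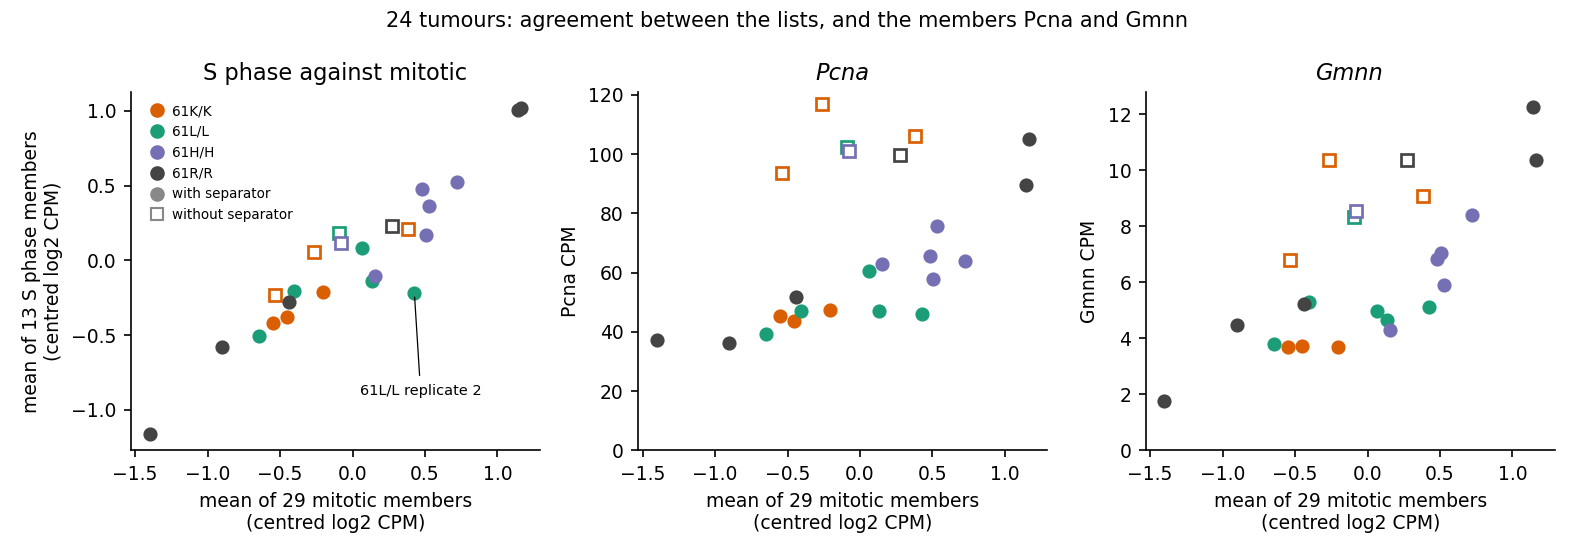
Left, mean of the 13 S phase against mean of the 29 mitotic members in the 24 tumours (centred log2 CPM, r = 0.93), with 61L/L replicate 2 named. Middle and right, CPM of Pcna and Gmnn against the same mitotic mean, where the open squares (column names without the separator) lie above the filled circles of similar mitotic mean.

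Most histone genes with symbols from Hist1h to Hist4h are replication-dependent, with transcripts made in S phase that end in a stem-loop, not a poly(A) tail. Genes with these symbols were counted in these ribosome-depleted libraries. Of 67 such genes 56 were tested, and 53 of them correlated with the members' mean at r above 0.5 (median 0.88). Since near-identical copies share reads, they were summed. The sum was 1171 to 2845 CPM in 61K/K, 1246 to 3370.4 CPM in 61L/L, 1956 to 4119 CPM in 61H/H and 668 to 4786 CPM in 61R/R tumours, with the extremes in 61R/R replicates 2 and 6. Its log2 value correlated with the members' mean at r = 0.90, and at 0.97 within the 18 libraries with a separator. The lowest 61R/R tumour was thus low in histone transcripts as well as in the 42 genes.

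Beyond the 42, edgeR called 0 of the 57 S phase genes in any comparison, 1 of the 55 mitotic and 1 of the 18 regulator genes in 61H/H against 61K/K, where 9.36% of all genes were called, and 1 regulator in 61H/H against the mean of the others, where 6.41% were. At an unadjusted p under 0.05, 0 to 18 of the S phase genes passed over the 8 comparisons, and in 61H/H against 61K/K 18 of 57 S phase, 22 of 55 mitotic and 5 of 18 regulator genes did, against 26.3% of all genes. Foxm1, the transcription factor of the mitotic genes, was called in 61H/H against 61K/K, with 36.3 to 131 CPM in 61H/H (median 80.5) and 22.0 to 41.2 CPM in 61K/K tumours (median 31.3), a log2 fold change of 1.37 ± 0.40 (edgeR adjusted p = 0.0336). Ncapd2, a condensin subunit that compacts mitotic chromosomes, was called in the same comparison, at 143 ± 53.6 CPM in 61H/H and 59.7 ± 14.6 CPM in 61K/K tumours (SD, n = 6 each), with 1.27 ± 0.36 for the log2 fold change (edgeR adjusted p = 0.0308). For both, 61H/H replicate 6 was the lowest of its group, and it overlapped 61K/K. Its column name lacks the separator. E2f5, a repressor-type E2F, was called in 61H/H against the mean of the other 3 genotypes, with 13.6 ± 3.47 CPM in 61K/K, 13.02 ± 1.70 CPM in 61L/L, 18.3 ± 4.17 CPM in 61H/H and 13.4 ± 2.18 CPM in 61R/R tumours (log2 fold change 0.46 ± 0.13, edgeR adjusted p = 0.0422). Median log2 fold changes of the lists in 61H/H against 61K/K were 0.43 for the other S phase genes, 0.64 for the other mitotic genes and 0.22 for the regulators, beside 0.41 and 0.65 for the members, with 55 of 57, 53 of 55 and 17 of 18 of the listed genes above 0.

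The regulators did not follow the members as one. E2f7 (r = 0.89 with the members' mean), Foxm1 (0.87), the retinoblastoma relative Rbl1 (0.87) and Mybl2, which encodes B-MYB (0.85), followed them closely. E2f4 (0.02), E2f6 (-0.03) and Rb1 (-0.07), which encodes the retinoblastoma protein, did not. The medians of r were 0.85 over the other S phase genes, 0.91 over the other mitotic genes and 0.46 over the regulators. Rpa3 (0.29), a subunit of the single-strand DNA binding protein, and Zw10 (0.08), a kinetochore protein, were lowest in their lists.

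The genes most like the members over the 24 tumours, by Pearson r with their mean, were Racgap1 (0.98), Dlgap5, Kif4, Ckap2l, Cep55, Kif15, Cenpi, Ercc6l, Ncaph and Knstrn (0.96), from 14932 candidates with a mean of at least 1 CPM. Racgap1 acts at the cleavage furrow, Cep55 in the final cut between daughter cells, Kif4 and Kif15 are kinesins and Ncaph is a condensin subunit. Of the 100 closest genes, 43 were in the other lists and 21 were histone genes, and 259 of the candidates had r above 0.8. Least like the members were Nbl1 (-0.83), a secreted antagonist of bone morphogenetic proteins, Tspyl4 (-0.82), Ntng2 (-0.78), 6530402F18Rik (-0.78) and the transporter Slc16a9 (-0.78).

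The 42 genes lie on 17 chromosomes, with 8 of them on chromosome 2. Exons of 4 members overlap a gene on the opposite strand: Ccna2 with Exosc9, Cdc20 with Elovl1, Nusap1 with Oip5, and Kif20a with Brd8 and Cdc23. No strand setting is named for the counting, so reads of these pairs cannot be told apart.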

How the data were processed

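RNA from 24 frozen melanomas was sequenced as ribosome-depleted stranded total RNA libraries, although the labels name the molecule polyA RNA. The authors aligned reads to mm10 with STAR, marked duplicates with Picard 2.17.11 and deposited raw read counts per gene from featureCounts, with summed exon length as another column. No count column was left unmapped. Groups were taken from the genotype in the labels. Replicate numbers follow accession order and pair nothing. Titles of 61H/H replicates 4 and 5 share a number, and no label says that every tumour came from its own mouse, so the p-values cover only the spread among these libraries. The letter code in the titles was used as a block for 61K/K and 61L/L against 61R/R, an alternative chosen after the data were seen.

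The members and lists were chosen with earlier results of these data known. Genes were filtered with filterByExpr, scaled by TMM and tested with edgeR 4.0.16 in R 4.3.3 (robust quasi-likelihood F-test). The SE is the absolute log2 fold change over the square root of F. DESeq2 1.42.0 and limma 3.58.1 (voom) were alternatives, beside other scalings, filters and library sets. Log2 CPM used a prior count of 2 and was centred per gene for list means. Levels are named for any member; tests are given for a panel of 8 members, for called members and for the lowest p in each comparison. Genes most like the members were the 10 with the highest and 5 with the lowest r. The test was tried first on simulated counts with the same spread in every genotype, which is not the case for the members here. Same-genotype libraries differed by a chi-square per degree of freedom of at least 71.8. No interval covers more than the spread between libraries.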

Additional observations from a re-analysis of the deposited data

Results flagged for a closer look

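In 184 groups of 6 tumours the highest or lowest value was set against the nearest other, and 11 stood apart by Dixon's criterion. Chance flags about 1 in 20 groups, and the members move together, so these are not 11 separate signals.

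Of the 11, 9 were the highest value of 61K/K, in replicate 6. Ccnb1 stood at 48.2 CPM there, with the next 61K/K tumour at 22.5 CPM. Prc1 stood at 134 CPM (next 71.0), Anln, a scaffold of the contractile ring, at 117 (72.4) and Tpx2 at 74.0 (41.7). The motor Kif11 stood at 66.8 CPM (46.4), Kif2c, a kinesin that takes microtubules apart, at 26.5 (14.2), Top2a at 252 (164) and Ccna2 at 55.9 (38.0). The mean of the 29 mitotic members was 0.382 (log2, centred) in it, with the next 61K/K tumour at -0.204. In this tumour 28 of 29 mitotic and 9 of 13 S phase members were above their mean over the 24 tumours. The other 2 were in 61L/L replicate 6, Pcna at 102 CPM (next 60.7) and Gmnn at 8.31 CPM (next 5.28). Both tumours have column names without the separator, and the part of that in the values was not tested for 61K/K replicate 6 alone.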

How the results depend on the processing

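Of 1950 refitted values over 60 results and 34 alternatives, 1866 kept their direction and their side of the threshold or stayed within the spread. For list medians that spread was the SD of tumour means within a genotype, 0.487 for S phase and 0.612 for mitotic members. It exceeds most of the medians, so a median could change sign and still be counted, as the S phase median of 61H/H against 61R/R did. Counts of members called that stayed at 0 are in the tally too, so it is no measure of how firm the medians are. With DESeq2 size factors or DESeq2 itself, the log2 fold changes of Pcna, Top2a and Plk1 in 61H/H against 61R/R came to 0. With limma-voom, Mcm2 in 61L/L against 61R/R was 0.08 and E2f1 in 61H/H against 61R/R 0.14. Pcna in 61K/K against 61R/R was -0.51 within the libraries with a separator and -0.31 with the name style as a covariate. With the letter code as a block, added after seeing the data, medians in 61K/K against 61R/R moved to 0.50 over the S phase and 0.63 over the mitotic members, with Mcm2 at 0.54, Rrm2 at 0.56, E2f1 at 0.36, Mki67 at 0.43, Top2a at 0.63, Ccnb1 at 0.61 and Plk1 at 0.68, each of the opposite sign to the fit of all 24 libraries without it. Members called in 61H/H against 61K/K numbered 1 with DESeq2 and 2 with only the libraries compared, a fit with fewer samples.

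With 1 library left out, Pcna in 61K/K against 61R/R ran from -0.07 to 0.26 and Mcm2 in 61L/L against 61R/R from -0.41 to 0.08. In 61H/H against 61R/R, Pcna ran from -0.15 to 0.18, Rrm2 from -0.10 to 0.48, E2f1 from -0.20 to 0.18, Mki67 from -0.03 to 0.47, Top2a from -0.16 to 0.32, Ccnb1 from -0.04 to 0.40 and Plk1 from -0.17 to 0.30. Pcna in 61H/H against the mean of the others ran from -0.09 to 0.15. Members called in 61H/H against 61K/K ran from 0 to 1, and members with the highest median in 61H/H from 25 to 41. The cause of these changes was not tested. No paired analysis was possible because the replicate numbers follow accession order and no label pairs single tumours, and the only shared label, the letter code, was fitted as the block above. With 6 tumours a genotype and an SD of 1.05 (log2) for the median member in 61R/R, differences from 61R/R were measured only to within the intervals shown.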

Other observations

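Among the genes outside the lists, Cep55, Cenpi, Ercc6l and Knstrn were the closest to the members' mean over the 24 tumours (r = 0.97, 0.97, 0.97 and 0.96), and all 4 act in chromosome segregation or cell division. Within the 18 libraries with a separator their r was between 0.97 and 0.98. In 61H/H against 61K/K the other mitotic list ran from -0.06 (Zw10) to 1.33 (Iqgap3, a scaffold protein) on the log2 scale, and the other S phase list from -0.11 (Slbp, the histone stem-loop binding protein) to 1.07 (Rad51ap1, a recombination factor). These are values of bulk tumours, in which the share of cycling cells and the transcript level per cycling cell were not measured apart, and neither tumour age nor growth is in the labels.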
